A study of Homo sapiens with 16 samples.

Results

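Neutrophil-like differentiated HL-60 cells (dHL-60) given 1 µg/ml Staphylococcus aureus lipoteichoic acid (LTA) for 24 h were compared with untreated dHL-60 kept for 24 h. The groups were chosen by their sample titles and held 2 libraries each, 4 of the 16 libraries in the series. HL-60 is an established human promyelocytic leukaemia line that can be matured in culture into cells with neutrophil features. No source used here names the differentiation agent, and dHL-60 remain cells of 1 leukaemia line, not blood neutrophils. The other dHL-60 groups, used for the shared spread and for the side-by-side values below, were 1 µg/ml LTA at 4 h, 10 µg/ml LTA at 4 and 24 h, and untreated cells at 4 h, again 2 libraries each. The 4 libraries of undifferentiated HL-60 were not used here.

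LTA is an amphiphilic polymer anchored in the membrane of Gram-positive bacteria. It is sensed at the cell surface by TLR2, which works as a dimer with TLR1 or TLR6 and receives lipid ligands from CD14, and the signal passes through the adaptor MYD88 and its kinases to NF-κB and the MAP kinases. In neutrophils and monocytes this pathway switches on cytokines and chemokines within hours and is then restrained by induced inhibitors such as NFKBIA, TNFAIP3 and SOCS3. Neutrophil precursors make the primary granule enzymes (MPO, ELANE, PRTN3, AZU1, CTSG) at the promyelocyte stage and stop doing so as they mature, while S100A8, S100A9, the integrin CD11b/CD18 and the receptors for formyl peptides and C5a come later.

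RNA was read as whole-number read counts per gene. Over the 12 dHL-60 libraries the totals ran from 9653374 to 16530277 counts; the 1 µg/ml LTA libraries at 24 h held 12199179 and 13734726, and the untreated ones 16530277 and 12072329. Levels are CPM, the library-scaled count rate with TMM factors, changes are log2 fold changes with their SE, and adjusted p values are Benjamini-Hochberg values of edgeR's two-sided quasi-likelihood F test over 11866 tested genes, with a call at an adjusted p under 0.05. Replicate libraries differed by more than sampling noise, and their chi-square divided by its degrees of freedom was 11.56 for LTA and 14.97 for untreated cells at 24 h. Nothing in the labels says that they came from separate cultures. The p values therefore set a group difference only against the spread between replicates of the 12 dHL-60 libraries, and that spread may be technical. In bulk RNA, fewer cells making a transcript and less transcript per cell cannot be told apart. The neutrophil line's own markers were present, among them MPO, ITGAM and CYBB, whereas LTF, LCN2, CD177, ALPL and MMP8, genes of late neutrophil stages, were at or near 0 in both groups.

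At 24 h, 1651 genes were higher with 1 µg/ml LTA (13.9% of those tested) and 862 were lower (7.26%). Of these, 832 genes were at least 2-fold higher (7.01%) and 217 at least 2-fold lower (1.83%). All called genes had both LTA libraries on one side of both untreated libraries, as did 7480 of all 11866 tested genes. Of the called genes 65.7% were higher, and with upper-quartile scaling in place of TMM 55%. The counts moved with single libraries: 1037 higher and 434 lower genes were called without untreated replicate 1, 1112 and 485 without untreated replicate 2, 919 and 225 without LTA replicate 1, and 1298 and 471 without LTA replicate 2. The median log2 fold change over all tested genes was 0.01.

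The genes with the steepest increase included signalling and surface molecules with almost no transcript in untreated cells. JAK3, the kinase of the common cytokine receptor γ chain, stood at 48.6 and 41.6 CPM with LTA and at 0.43 and 0.37 CPM in untreated cells, a log2 fold change of 6.78 ± 0.31 (adjusted p = 4.7e-08). IL7R, the interleukin-7 receptor α chain that signals through JAK3, had 244 counts over both LTA libraries and 2 over both untreated libraries, a ratio of 137 with a 95% counting interval of 37.5 to 1136. CD274, the checkpoint ligand PD-L1, had 158 counts with LTA against 3 untreated, a ratio of 59.1 (19.8 to 290). The intervals cover counting error only. Both LTA libraries lay above both untreated libraries for all 3 genes, which was a condition for naming them here.

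CES1, a carboxylesterase of monocytes and liver, was at 46.0 and 31.6 CPM with LTA and at 0.85 and 0.59 CPM in untreated cells (log2 5.70 ± 0.32, adjusted p = 1.4e-07). SOCS3, the feedback inhibitor of cytokine signalling through STAT3, was at 17.2 and 21.2 CPM with LTA and at 0.48 and 1.10 CPM untreated (log2 4.67 ± 0.49, adjusted p = 1.9e-05). GPRIN3 was at 7.78 and 7.34 CPM with LTA and at 0.16 and 0.15 CPM untreated (log2 5.53 ± 0.47, adjusted p = 2.8e-06). Each of these rests on untreated levels of about 1 CPM or less, so the size of the ratio is less certain than its direction.

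The remaining genes among the 15 with the steepest increase were SLAMF8, CHST2, ADAMDEC1, SGPP2, KIFC3, CCL24, TNFRSF18, IL32 and C15orf48, with log2 fold changes from 4.67 for C15orf48 to 6.26 for SLAMF8. ADAMDEC1 is a secreted protease-like protein of macrophages and dendritic cells, TNFRSF18 is the receptor GITR, IL32 a cytokine, and SGPP2 a phosphatase of sphingosine 1-phosphate. Their calls held when any 1 library was left out, but the sizes did not all do so. Without untreated replicate 1 the log2 fold change was 7.63 for SLAMF8, 6.42 for ADAMDEC1, 6.05 for C15orf48, 6 for SGPP2, 5.81 for KIFC3, 5.62 for TNFRSF18 and 4.56 for CHST2. Without untreated replicate 2 it was 6.30 for CHST2 and 5.30 for SOCS3, and without LTA replicate 1 it was 4.35 for SGPP2, 4.91 for CD274 and 4.16 for IL32. CCL24, an eosinophil-attracting chemokine, was the least steady, at 88.2 and 23.4 CPM with LTA and 2.82 and 0.22 CPM untreated, and its log2 fold change of 5.05 ± 0.98 was 7.91 without untreated replicate 1, 4.30 without untreated replicate 2, 3.80 without LTA replicate 1 and 5.72 without LTA replicate 2. For SLAMF8, 69% of exon bases are shared with another annotated gene, and for C15orf48 32.5%, so reads could have been assigned to either partner.

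**Figure D1:**
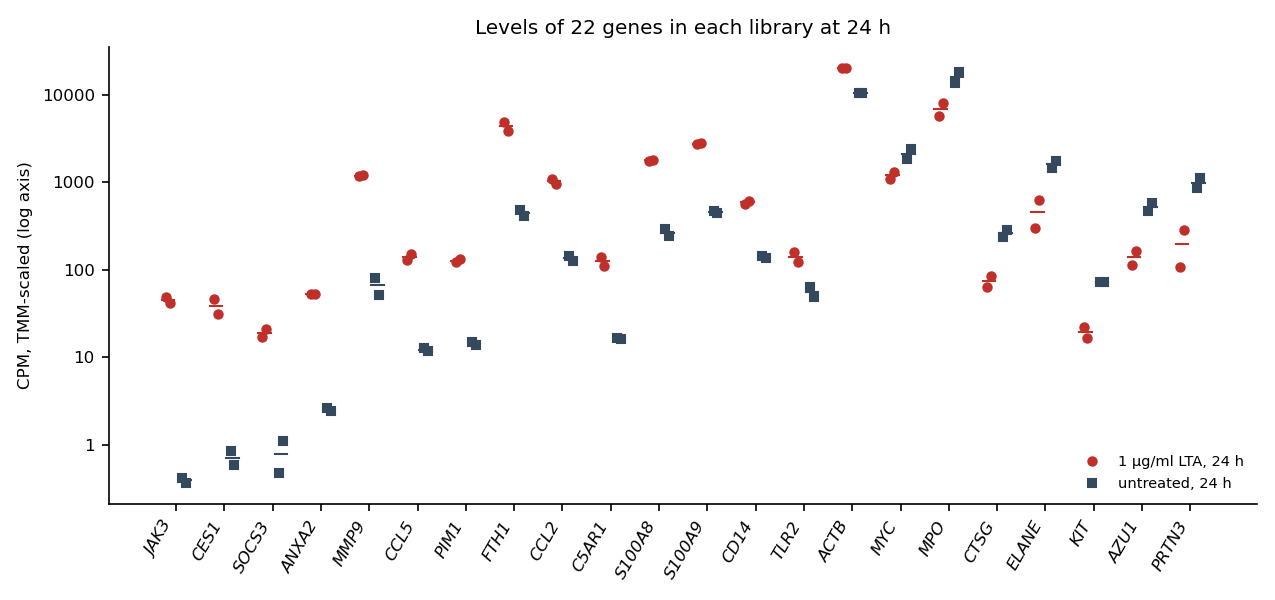
CPM on a log axis for 22 genes in the 2 libraries given 1 µg/ml LTA (circles) and the 2 untreated libraries (squares) at 24 h, with lines at the group means. The LTA libraries lie above the untreated ones for the 15 genes from JAK3 to ACTB and below them for the 7 from MYC to PRTN3. In none of the 22 do the groups overlap, as in all called genes.

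The promoters of these 15 genes are described because the genes rose together. A RefSeq table of GRCh38.p14 held a promoter for 10 of the 15, and 6 of the 10 had a match, within 250 bases before to 50 bases after a start, to the NF-κB motif, to the AP-1 motif TGANTCA or to the interferon response motif, GAAA followed after any 2 bases by GAAA, searched on both strands. The 250 bases before the start are shown for 4 of them, matches in capitals. In JAK3 (chr19:17847983-17848232, minus strand) there was an NF-κB match 30 bases before the start. In SGPP2 (chr2:222423738-222423987, plus strand) there were NF-κB matches at 239 and 139 bases and an AP-1 match at 63. In IL32 (chr16:3065153-3065402, plus strand) matches to the NF-κB motif on both strands overlapped at 99 and 98 bases. In CD274 (chr9:5450292-5450541, plus strand) 2 overlapping interferon response matches lay on the other strand at 208 and 202 bases.
JAK3: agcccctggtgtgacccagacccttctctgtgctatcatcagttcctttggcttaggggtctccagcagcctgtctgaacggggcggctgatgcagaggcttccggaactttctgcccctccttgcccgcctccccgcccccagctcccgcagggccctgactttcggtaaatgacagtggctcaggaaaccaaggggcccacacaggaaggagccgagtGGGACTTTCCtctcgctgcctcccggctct
SGPP2: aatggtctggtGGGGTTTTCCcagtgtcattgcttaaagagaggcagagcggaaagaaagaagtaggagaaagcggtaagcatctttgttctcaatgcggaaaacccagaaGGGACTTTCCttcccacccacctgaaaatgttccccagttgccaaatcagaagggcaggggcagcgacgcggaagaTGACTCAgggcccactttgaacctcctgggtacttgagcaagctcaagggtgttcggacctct
IL32: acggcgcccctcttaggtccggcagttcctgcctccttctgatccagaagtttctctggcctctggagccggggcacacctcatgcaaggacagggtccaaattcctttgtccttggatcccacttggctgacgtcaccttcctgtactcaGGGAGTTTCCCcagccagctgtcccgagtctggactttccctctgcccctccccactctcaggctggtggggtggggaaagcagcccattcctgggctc
CD274: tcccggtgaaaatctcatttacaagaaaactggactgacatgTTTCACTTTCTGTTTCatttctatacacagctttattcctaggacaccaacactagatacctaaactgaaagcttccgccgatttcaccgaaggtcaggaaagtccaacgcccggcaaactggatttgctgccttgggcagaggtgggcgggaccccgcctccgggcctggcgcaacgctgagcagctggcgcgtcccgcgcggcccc

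Over all genes with a promoter in the table, an NF-κB match was present for 12.9% of 1320 genes that rose, 8.82% of 669 that fell and 8.95% of all 9465 tested genes. A match to at least 1 of the 3 motifs was present for 25.8% of the genes that rose, 16.4% of those that fell and 18.1% of all. The AP-1 motif was found for 11.2% of the genes that rose, 5.23% of those that fell and 6.91% of all. The interferon response motif was found for 5.23% of the genes that rose, 3.59% of those that fell and 4.19% of all. These shares describe letters in a window around the annotated start; genes with several starts were counted if any window matched, and no binding was measured.

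The largest gains in CPM included genes of the cytoskeleton, iron storage, calcium-binding proteins and matrix degradation. ACTB, β-actin, was at 20240 and 19930 CPM with LTA and 10420 and 10560 CPM untreated (log2 0.94 ± 0.16, adjusted p = 0.0009), although it is commonly used as a reference gene. FTH1, the ferritin heavy chain (chromosome 11, 61964285 to 61967634), was at 4817 and 3879 CPM with LTA against 480 and 412 CPM untreated (log2 3.29 ± 0.24, adjusted p = 9.9e-07), although 62.4% of its exon bases are shared with other annotated genes. MMP9, gelatinase B of the tertiary granules (chromosome 20, 46008908 to 46016561), was at 1162 and 1209 CPM with LTA against 81.5 and 51.0 CPM untreated (log2 4.16 ± 0.33, adjusted p = 1.5e-06). In each of the 3 the groups lay farther apart than the replicates within either group.

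S100A9 and S100A8, the calprotectin subunits on chromosome 1 that make up a large share of neutrophil cytosolic protein, stood at 2705 and 2788 CPM and at 1731 and 1810 CPM with LTA. In untreated cells they stood at 468 and 446 CPM and at 292 and 241 CPM. The log2 fold changes were 2.59 ± 0.19 for S100A9 and 2.73 ± 0.19 for S100A8. Smaller relative increases at high level were found for LCP1, the actin bundler L-plastin (log2 0.75 ± 0.15), PKM, pyruvate kinase (0.73 ± 0.14), and ITGB2, the β chain of CD11b/CD18 (1.05 ± 0.14). TUBA1B passed the test (0.56 ± 0.15, adjusted p = 0.014) but lost its call without either untreated library or LTA replicate 2, with an adjusted p of up to 0.102.

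The losses by amount were led by MPO, myeloperoxidase (chromosome 17, 58269855 to 58280935). It was at 5666 and 8087 CPM with LTA and at 13740 and 18120 CPM in untreated cells, a log2 fold change of -1.21 ± 0.22 (adjusted p = 0.0015). LYZ, lysozyme, was at 2519 and 2719 CPM with LTA against 5353 and 4392 CPM untreated (log2 -0.90 ± 0.16, adjusted p = 0.0012), with 34% of its exon bases shared with another annotated gene. P4HB, SRGN, CALR and the ribosomal protein genes RPL13A, RPS3A, RPLP1 and RPL3 also passed the test with log2 fold changes from -1.02 to -0.54, but each of these 7 lost its call without LTA replicate 1, and all but P4HB also without an untreated library. The highest adjusted p when 1 library was left out was 0.0737 for P4HB, 0.099 for SRGN, 0.0725 for RPS3A, 0.185 for RPL3, 0.261 for RPL13A, 0.36 for CALR and 0.365 for RPLP1.

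Of 16 tested primary granule genes 10 fell and none rose, with a median log2 fold change of -1.11 against 0.01 over all genes tested. PRTN3, proteinase 3, was at 108 and 283 CPM with LTA and 854 and 1123 CPM untreated. ELANE, neutrophil elastase, was at 298 and 621 CPM with LTA and 1454 and 1738 CPM untreated. In both genes LTA replicate 2 stood well above replicate 1 while staying below both untreated libraries, and without it the log2 fold change moved to -3.19 for PRTN3 (main value -2.34 ± 0.38) and to -2.42 for ELANE (-1.80 ± 0.29). CTSG, cathepsin G, had closer replicates, 64.3 and 86.1 CPM with LTA and 234 and 288 CPM untreated (log2 -1.79 ± 0.17, adjusted p = 8.3e-06), as did AZU1, azurocidin (113 and 165 CPM with LTA against 469 and 583 CPM untreated; log2 -1.92 ± 0.25). RNASE2, an eosinophil and neutrophil ribonuclease, had a log2 fold change of -0.40 ± 0.18 (adjusted p = 0.13). Leaving out 1 library left 7 to 10 lower members.

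Further steep decreases were found outside the primary granule genes. KIT, the stem cell factor receptor, was at 22.4 and 16.5 CPM with LTA and 71.8 and 71.9 CPM untreated (log2 -1.89 ± 0.19, adjusted p = 1.2e-05). NOG, the BMP antagonist noggin, and PLD4, an endolysosomal exonuclease of myeloid cells, had the largest decreases, at log2 -3.42 ± 0.39 and -3.40 ± 0.33, with LTA levels of 0.59 to 0.66 CPM and untreated levels of 6.01 to 6.83 CPM. The other genes among the 15 with the steepest decrease were SDK2, MUC19, LINC00426, DOC2A, DEPTOR, SPNS3, ANO7 and FAM95C, at log2 -2.75 to -1.67. SDK2 reached -3.35 and MUC19 -3.17 without LTA replicate 2. FAM95C shares 54.8% of its exon bases with another annotated gene.

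Among 11 tested progenitor receptors and growth regulators, 5 fell and 1 rose (median -0.81). Leaving out LTA replicate 1 left 3 lower, and the higher call was lost without untreated replicate 1 or LTA replicate 2. MYC, the growth-driving transcription factor amplified in HL-60, was at 1086 and 1322 CPM with LTA and 1862 and 2372 CPM untreated (log2 -0.81 ± 0.17, adjusted p = 0.0037, but 0.064 without LTA replicate 1). Of 19 myeloid lineage transcription factors 5 rose and 5 fell. GFI1, the repressor needed for granulocyte fate, fell (181 and 217 CPM with LTA against 368 and 390 CPM untreated; log2 -0.93 ± 0.13), as did MYB (103 and 141 CPM with LTA against 266 and 237 CPM untreated; log2 -1.04 ± 0.20). Outside this list, KLF4, a monocyte factor, rose (18.6 and 11.6 CPM with LTA against 2.24 and 3.31 CPM untreated; log2 2.46 ± 0.28). SPI1, which encodes PU.1, was at 338 and 321 CPM with LTA against 225 and 268 CPM untreated (adjusted p = 0.14). Without 1 library 2 to 4 of the listed factors were higher and 3 to 5 lower, with fewer higher ones without untreated replicate 1 or LTA replicate 1 and fewer lower ones without untreated replicate 2 or LTA replicate 1. Of 27 ribosome biogenesis factors 6 fell and none rose (median -0.35). Leaving out 1 library gave 0 to 5 lower factors, with the count moved by untreated replicates 1 and 2 and LTA replicate 1, and other settings gave up to 13.

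**Figure D2:**
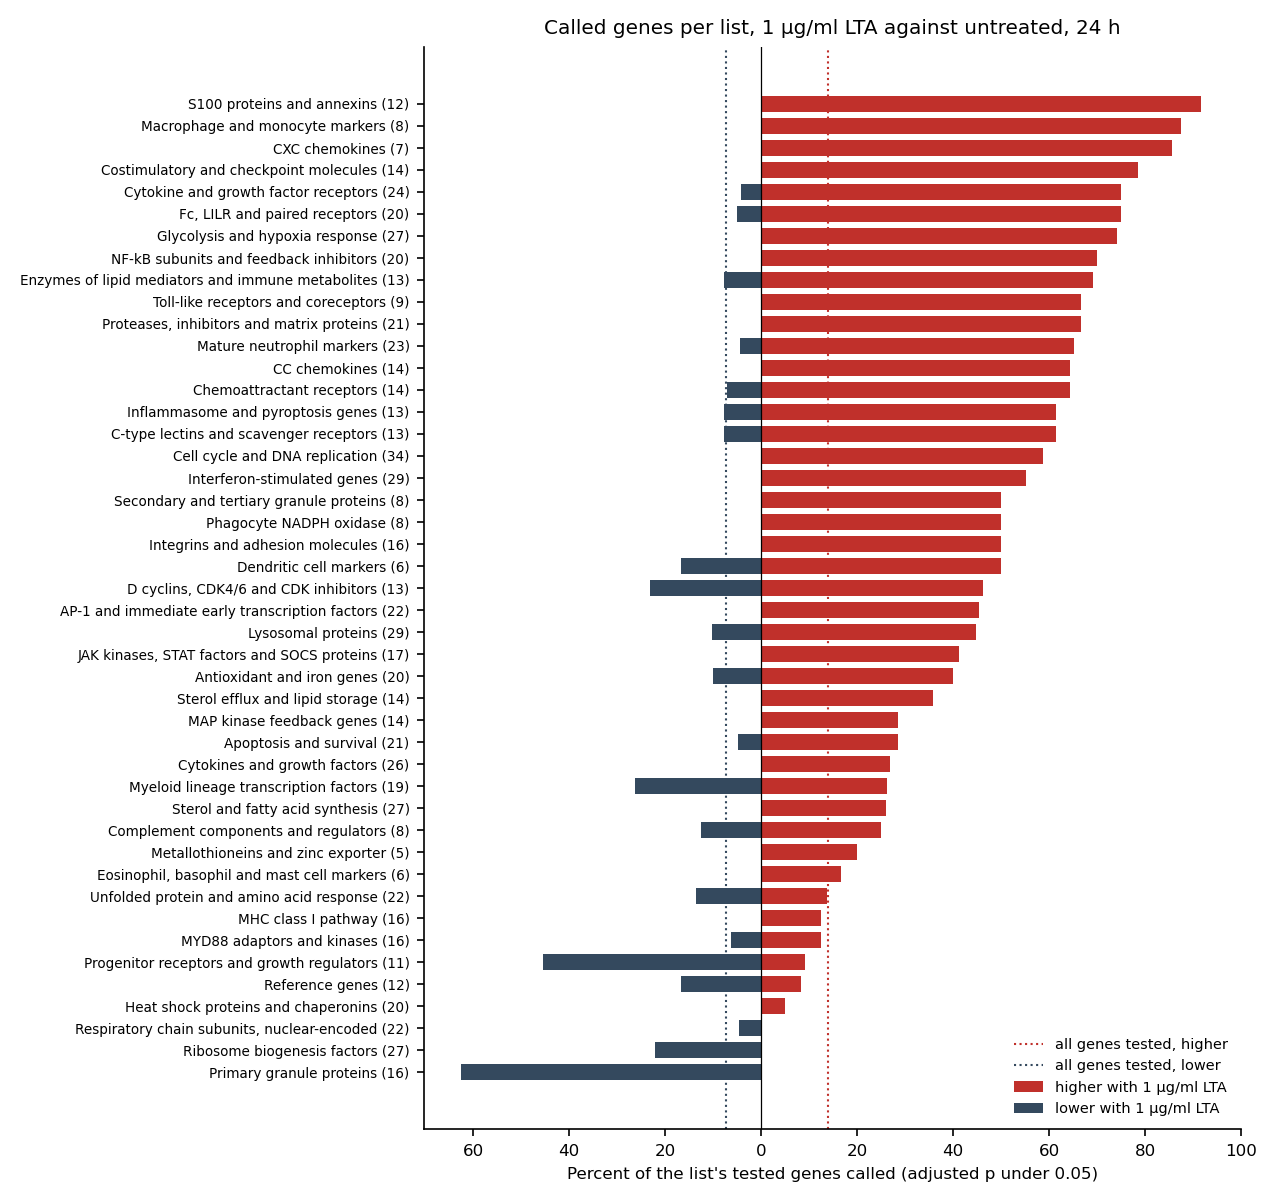
Percent of the tested genes of each list (number in parentheses, lists of 5 or more) that were higher (right, red) or lower (left, blue) with 1 µg/ml LTA than untreated at 24 h. Dotted lines mark the 13.9% higher and 7.26% lower among all tested genes; the primary granule list extends farthest to the left, with 10 of 16, and the S100 and annexin list farthest to the right, with 11 of 12.

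The receptor for LTA and its partners were themselves higher. TLR2 was at 158 and 123 CPM with LTA and 63.8 and 48.4 CPM untreated (log2 1.32 ± 0.16, adjusted p = 6.2e-05), TLR1 at 42.5 and 33.4 CPM with LTA against 13.8 and 11.8 CPM untreated, and TLR6 at 34.1 and 28.6 CPM with LTA against 13.9 and 12 CPM untreated. CD14 was at 564 and 615 CPM with LTA and 145 and 136 CPM untreated (log2 2.07 ± 0.16, adjusted p = 1.3e-06). Of 9 tested Toll-like receptors and coreceptors 6 rose and none fell. Of 16 adaptors and kinases downstream 2 rose and 1 fell, a share near that over all genes tested (13.9% higher and 7.26% lower); 4 rose without LTA replicate 2, and none fell without LTA replicate 1. MYD88 itself was at 229 and 208 CPM with LTA against 110 and 123 CPM untreated (log2 0.91 ± 0.15, adjusted p = 0.00056).

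NF-κB subunits and their feedback inhibitors were higher at 24 h in 14 of 20 cases, with a median log2 fold change of 0.89 and none lower. NFKBIA, the inhibitor IκBα, was at 497 and 351 CPM with LTA and 92.6 and 78.5 CPM untreated (log2 2.31 ± 0.28, adjusted p = 6.2e-05). TNFAIP3, the deubiquitinase A20, was at 177 and 112 CPM with LTA against 47.9 and 32.8 CPM untreated (log2 1.84 ± 0.29), and NFKB2 at 239 and 183 CPM with LTA against 62.9 and 56.4 CPM untreated (log2 1.82 ± 0.23). NFKBIZ, an inducible coactivator, had a log2 fold change of 4.04 ± 0.42 that ran from 3.44 without LTA replicate 1 to 4.93 without untreated replicate 1. In the AP-1 and immediate early list 10 of 22 rose, and 6 to 8 when 1 library was left out, with the lowest counts without untreated replicate 1 or LTA replicate 1. Of 14 MAP kinase feedback genes 4 rose. Without any 1 library 1 to 2 rose, a share near or below the 13.9% over all genes tested, and nothing is read from this count. Of 17 JAK, STAT and SOCS genes 7 rose, among them JAK3 and SOCS3 above and PIM1, a STAT-induced kinase, at 122 and 132 CPM with LTA against 14.9 and 14.0 CPM untreated (log2 3.13 ± 0.17, adjusted p = 1.2e-07); 4 of the 17 were called without untreated replicate 1 or 2 or LTA replicate 1.

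Chemokines of both families and part of the cytokines rose. Of 14 CC chemokines 9 rose (median 2.80) and of 7 CXC chemokines 6 rose (median 3.09), while of 26 cytokines and growth factors 7 rose (median 0.44), and none of the 3 lists had a lower member. CCL2, the monocyte attractant MCP-1, was at 1081 and 960 CPM with LTA and 145 and 125 CPM untreated (log2 2.92 ± 0.25, adjusted p = 3.2e-06). CCL5, RANTES, was at 129 and 152 CPM with LTA against 12.7 and 11.9 CPM untreated (log2 3.52 ± 0.16, adjusted p = 4.7e-08), and CXCL8, interleukin-8, at 306 and 248 CPM with LTA against 99.8 and 59.4 CPM untreated (log2 1.79 ± 0.35, adjusted p = 0.0023). CXCL16, a transmembrane chemokine, was at 21.2 and 18.4 CPM with LTA against 1.70 and 1.69 CPM untreated. The groups did not overlap in any of these 4 genes, as in all called genes.

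Among the cytokines, IL1B was at 105 and 79.5 CPM with LTA and 16.5 and 11.8 CPM untreated (log2 2.70 ± 0.33, adjusted p = 6.3e-05). EBI3, the β subunit of interleukins 27 and 35, was at 46.9 and 36.5 CPM with LTA against 2.08 and 1.54 CPM untreated (log2 4.49 ± 0.29), and IL1RN, the receptor antagonist of IL-1, at 112 and 104 CPM with LTA against 21.1 and 17.3 CPM untreated (log2 2.49 ± 0.31). TNF was at 57.7 and 55.9 CPM with LTA against 33.4 and 30.3 CPM untreated, and its call (log2 0.83 ± 0.27, adjusted p = 0.044) was lost with upper-quartile scaling and without any 1 of the 4 libraries, with an adjusted p of up to 0.18. IL18 was at 26.0 and 25.1 CPM with LTA against 30.8 and 29.7 CPM untreated (adjusted p = 0.42). SERPINB9, the granzyme B inhibitor, had 48 counts over both LTA libraries and 0 over both untreated ones, at least 17.9-fold higher taking 3 counts for the untreated group. KYNU, kynureninase, had 65 counts with LTA and 0 untreated, at least 24.3-fold higher.

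Receptors of the phagocyte surface rose in several lists. Of 24 tested cytokine and growth factor receptors 18 rose (median 1.13), of 14 chemoattractant receptors 9 (median 1.65), of 20 Fc, LILR and paired receptors 15 (median 1.60) and of 14 costimulatory and checkpoint molecules 11 (median 2.69). The chemoattractant and Fc receptor lists had 1 lower member each: LTB4R, a leukotriene B4 receptor, whose call was lost without untreated replicate 2 or LTA replicate 1, and LILRA2, whose call was lost without untreated replicate 2 or either LTA library. C5AR1, the C5a receptor, was at 141 and 109 CPM with LTA and 16.7 and 16.2 CPM untreated (log2 2.92 ± 0.18, adjusted p = 2.8e-07). FPR1, the formyl peptide receptor, was at 222 and 198 CPM with LTA against 32.1 and 29.9 CPM untreated (log2 2.76 ± 0.19, adjusted p = 5.4e-07). CSF2RB, the shared β chain of the GM-CSF, IL-3 and IL-5 receptors, was at 609 and 474 CPM with LTA against 154 and 131 CPM untreated. The IL-8 receptor gene CXCR2 was at 21.7 and 17.6 CPM with LTA against 20.5 and 22.7 CPM untreated (adjusted p = 0.69), and CSF3R, the G-CSF receptor, was the only receptor of the cytokine receptor list called lower (173 and 180 CPM with LTA against 243 and 293 CPM untreated; log2 -0.60 ± 0.18), a call lost without untreated replicate 2 or either LTA library, with an adjusted p of up to 0.182. The Fc and LILR genes share sequence with near-identical copies, and their single values are uncertain for that reason.

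ITGAM, the α chain of CD11b/CD18 and a usual marker of HL-60 maturation, was at 209 and 188 CPM with LTA and 64.2 and 65.6 CPM untreated (log2 1.61 ± 0.12, adjusted p = 1.3e-06). CD86, a ligand that costimulates T cells, was at 131 and 132 CPM with LTA and 78.5 and 76.9 CPM untreated (log2 0.76 ± 0.11). CD40, the receptor for the T cell ligand CD154, was at 8.73 and 5.97 CPM with LTA against 0.59 and 0.59 CPM untreated (log2 3.62 ± 0.27). CD83, an activation marker of antigen-presenting cells, was at 21.7 and 13.8 CPM with LTA against 17.1 and 16.9 CPM untreated (adjusted p = 0.93). Of 16 integrins and adhesion molecules 8 rose and none fell (median 0.48), and of 13 C-type lectins and scavenger receptors 8 rose and 1 fell (median 1.53). In the MHC class I pathway 2 of 16 rose (0 to 1 without any 1 library), no more than the 13.9% over all genes tested, and in the class II pathway 1 of 3 (0 without any 1 library).

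Lists of effector genes outside the primary granules had several higher genes and at most 1 lower gene each. Of 12 S100 proteins and annexins 11 rose (median 1.89); ANXA2 was at 53.3 and 52.5 CPM with LTA and 2.66 and 2.42 CPM untreated (log2 4.37 ± 0.27, adjusted p = 3.2e-07). Of 8 subunits and partners of the phagocyte NADPH oxidase 4 rose and none fell. CYBB, the catalytic gp91phox, was at 980 and 813 CPM with LTA against 411 and 361 CPM untreated (log2 1.22 ± 0.16), whereas CYBA, p22phox, was at 176 and 141 CPM with LTA against 105 and 144 CPM untreated (adjusted p = 0.27), with overlapping groups. Of 8 secondary and tertiary granule proteins 4 rose and none fell (median 0.85), MMP9 among them. Of 21 proteases, inhibitors and matrix proteins 14 rose (median 1.35). Outside the lists, SERPINA1, α1-antitrypsin and the plasma inhibitor of elastase, was at 659 and 629 CPM with LTA and 96.9 and 96.2 CPM untreated (log2 2.74 ± 0.18, adjusted p = 4e-07). Of 13 enzymes of lipid mediators and immune metabolites 9 rose and 1 fell; ALOX5AP, the 5-lipoxygenase activating protein, was at 82.1 and 73.2 CPM with LTA against 16.4 and 11.7 CPM untreated (log2 2.46 ± 0.22), and PTGS2, cyclooxygenase 2, at 11.9 and 8.98 CPM with LTA against 3.67 and 2.65 CPM untreated (log2 1.70 ± 0.35).

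Of 27 glycolysis and hypoxia genes 20 rose (median 0.76) and none fell. SLC2A3, the glucose transporter GLUT3, was at 439 and 501 CPM with LTA and 91.8 and 75.8 CPM untreated (log2 2.49 ± 0.17, adjusted p = 4.5e-07). LDHA, lactate dehydrogenase, was at 1192 and 1476 CPM with LTA against 873 and 705 CPM untreated (log2 0.76 ± 0.16), a call lost without untreated replicate 2, with an adjusted p of 0.0551. Of 22 nuclear-encoded respiratory chain subunits none rose and 1 fell. Interferon-stimulated genes rose in 16 of 29 cases (median 0.95). IRF7, the inducible factor of interferon genes, was at 41.2 and 44.5 CPM with LTA against 14.6 and 15.3 CPM untreated (log2 1.52 ± 0.18), while ISG15, a ubiquitin-like protein, was at 6.90 and 7.21 CPM with LTA against 9.16 and 11 CPM untreated (adjusted p = 0.21) and MX1, an antiviral GTPase, at 2.64 and 1.57 CPM with LTA against 1.44 and 1.25 CPM untreated (adjusted p = 0.28). Of 13 inflammasome genes 8 rose and 1 fell (median 1.53); CASP1, the protease that matures IL-1β, was at 120 and 96.1 CPM with LTA against 37.0 and 31.9 CPM untreated (log2 1.64 ± 0.15), and NLRP3, an inflammasome sensor, at 10.1 and 10.2 CPM with LTA against 9.58 and 10.2 CPM untreated (adjusted p = 0.93). Without untreated replicate 1, 5 of the 13 were called higher.

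Cell cycle genes and cell cycle inhibitors rose at the same time. Of 34 cell cycle and replication genes 20 rose and none fell (median 0.64), and 14 to 16 rose when 1 library was left out. MKI67, the proliferation antigen, was at 293 and 207 CPM with LTA and 84.3 and 110 CPM untreated (log2 1.37 ± 0.19, adjusted p = 0.00018), and TOP2A, topoisomerase IIα, at 198 and 165 CPM with LTA against 80.7 and 88.0 CPM untreated (log2 1.10 ± 0.17). MCM2, a subunit of the replicative helicase, was at 179 and 192 CPM with LTA against 180 and 193 CPM untreated (adjusted p = 0.97). The inhibitor CDKN1A, p21, was at 43.5 and 36.3 CPM with LTA and 2.71 and 2.72 CPM untreated (log2 3.87 ± 0.19, adjusted p = 7.9e-08), and CDKN2D, p19INK4d, at 17.2 and 16.3 CPM with LTA against 4.21 and 4.78 CPM untreated (log2 1.91 ± 0.23). Of the D cyclins, CCND3 rose (204 and 180 CPM with LTA against 50.4 and 61.5 CPM untreated; log2 1.78 ± 0.14), while CCND1 was at 18.8 and 21.0 CPM with LTA against 28.8 and 32.5 CPM untreated (log2 -0.62 ± 0.15, adjusted p = 0.0081), a call lost without untreated replicate 2 or LTA replicate 1, with an adjusted p of up to 0.096. Of all 13 D cyclins, CDK4/6 and CDK inhibitors 6 rose and 3 fell (1 to 3 lower without 1 library, fewest without untreated replicate 2 or LTA replicate 1).

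The remaining lists had fewer called members. Of 20 antioxidant and iron genes 8 rose and 2 fell, and neither of the lower calls held without any 1 library; HMOX1, heme oxygenase 1, was at 7.48 and 6.95 CPM with LTA and 1.22 and 1.62 CPM untreated (log2 2.36 ± 0.41, adjusted p = 0.0011), and NQO1, a quinone reductase, at 14.8 and 9.7 CPM with LTA against 3.83 and 4.19 CPM untreated (log2 1.61 ± 0.29). Of 29 lysosomal proteins 13 rose and 3 fell; without 1 library 7 to 9 rose, with the count most moved by untreated replicate 1 and LTA replicate 1, and the lower calls, CTSA, GRN and HEXA, were each lost without untreated replicate 2 or either LTA library. Of 21 apoptosis and survival genes 6 rose and 1 fell, and 3 to 4 rose without 1 library, while the lower call, BCL2, was lost without any 1 library and with library totals. BCL2A1 and MCL1, survival proteins of neutrophils, were at 30.6 and 26.4 CPM with LTA against 8.04 and 7.35 CPM untreated (log2 1.88 ± 0.24) and at 284 and 283 CPM with LTA against 186 and 169 CPM untreated (log2 0.67 ± 0.13). Of 14 sterol efflux and lipid storage genes 5 rose (3 without untreated replicate 1 or either LTA library).

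Of 22 genes of the unfolded protein and amino acid response 3 rose and 3 fell, of 20 heat shock proteins and chaperonins 1 rose, of 8 complement genes 2 rose and 1 fell, and of 5 metallothioneins and zinc exporters 1 rose. The single heat shock call was lost without any 1 library, and of the unfolded protein genes 1 was higher and 0 to 1 lower without untreated replicate 1 or 2 or LTA replicate 1. Over all genes tested 13.9% were higher and 7.26% lower, and nothing is read from the counts of these lists. Of 12 reference genes ACTB rose and RPLP0 and RPL13A fell, the lower calls being lost without any 1 library. Single lower calls were also lost in the C-type lectin list without untreated replicate 1 or LTA replicate 1, in the complement list without untreated replicate 2 or LTA replicate 1, and in the lipid mediator and respiratory chain lists without untreated replicate 1 or either LTA library.

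Marker lists of mature neutrophils and of other cells that a culture could hold were summed. The mature neutrophil list had 15 of 23 tested genes higher and 1 lower, and its summed level was 10135 to 10355 CPM with LTA and 2885 to 2953 CPM untreated. The macrophage and monocyte list had 7 of 8 tested genes higher, with summed levels of 930 to 964 CPM with LTA and 221 to 226 CPM untreated; CD14 and CSF1R, given with their values elsewhere here, are members, and CD68, MRC1, MSR1 and MARCO were at or near 0. Dendritic cell markers summed to 39.3 to 41.4 CPM with LTA and 37.2 to 39.9 CPM untreated, with CLEC9A, XCR1 and CD207 at 0. Eosinophil, basophil and mast cell markers summed to 15.8 to 27.1 CPM with LTA and 29.5 to 30.1 CPM untreated, lymphocyte markers to 1.76 to 2.69 CPM with LTA and 1.32 to 1.60 CPM untreated with CD3D, CD8A and MS4A1 at 0, and red cell and platelet markers to 5.05 to 5.14 CPM with LTA and 1.76 to 1.81 CPM untreated with ALAS2 and PF4 at 0. Of 6 tested dendritic cell markers 3 rose and 1 fell, of 6 eosinophil, basophil and mast cell markers 1 rose, of 2 lymphocyte markers none was called, and of 4 red cell and platelet markers 2 rose (1 without untreated replicate 1 or either LTA library). With 13.9% higher and 7.26% lower over all genes tested, nothing is read from these small counts. The lower call was lost without untreated replicate 2 or either LTA library in the mature neutrophil list and without LTA replicate 1 in the dendritic cell list, and the eosinophil, basophil and mast cell call was lost without untreated replicate 1. The neutrophil and macrophage sums moved with the receptor, S100 and chemokine lists. They share genes with the receptor and granule lists, among them C5AR1, FPR1, MMP9, CD14 and CSF1R, so they are not separate evidence. In the neutrophil list MMP9 was at a far higher level with LTA than C5AR1 and FPR1. CD14 made up most of the macrophage and monocyte sum. The part of the sums in the results of those lists was not tested.

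The late response was then set against the response to the same dose at 4 h, where 2214 genes were higher (18.7%) and 2380 lower (20.1%) than in untreated cells of 4 h. The difference between the responses, 24 h minus 4 h, was called for 1582 genes with the higher response at 24 h (13.3%) and for 879 with the lower (7.41%). Of the 1651 genes higher at 24 h, 707 were also higher at 4 h, 262 were lower at 4 h and 682 were not called at 4 h, and among these 682 the difference itself was called for 350. Of the 862 genes lower at 24 h, 380 were lower and 49 higher at 4 h, and 433 were not called, 118 of them with a called difference. With library totals in place of TMM factors the difference was called higher for 2564 genes and lower for 478, with the median over all genes at 0.30 in place of 0.04.

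**Figure D3:**
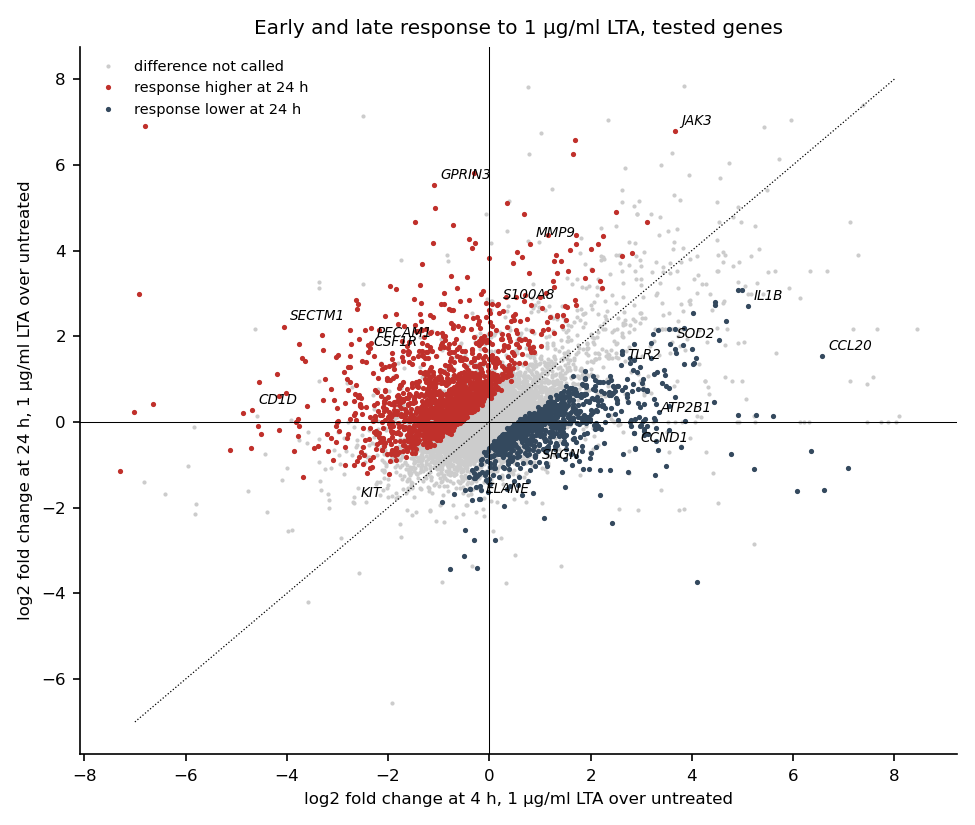
Log2 fold change of 1 µg/ml LTA over untreated cells at 24 h (vertical) against 4 h (horizontal), 1 point a tested gene. Red marks 1582 genes whose response was higher at 24 h and blue 879 whose response was lower at 24 h; IL1B and CCL20 lie far to the right, GPRIN3 and CSF1R in the upper left, and KIT is lower at both times.

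Some inflammatory genes had a smaller response at 24 h than at 4 h, and others a larger one. IL1B stood at 105 and 79.5 CPM with LTA at 24 h, against 16.5 and 11.8 CPM in the untreated cells, and at 6494 and 5994 CPM with LTA at 4 h, against 255 and 108 CPM untreated, so its response was lower at 24 h by a log2 difference of -2.41 (adjusted p = 0.0016; -3.16 without untreated replicate 1 of 4 h). CXCL8 had a difference of -2.02 (adjusted p = 0.0086, but 0.0557 without untreated replicate 1 of 24 h; -2.85 without untreated replicate 1 of 4 h), and the mitochondrial superoxide dismutase gene SOD2 one of -1.76 (adjusted p = 0.0012). TLR2 was at 1221 and 1191 CPM with LTA at 4 h and 194 and 201 CPM untreated at 4 h, a response larger than at 24 h (difference -1.29, adjusted p = 0.0012). In the NF-κB list 12 of 20 members had a lower response at 24 h than at 4 h and none a higher one, and in the cytokine list 12 of 26. The CC chemokine list had 3 of 14 lower and none higher, and the CXC list 3 of 7 lower and 1 higher. Over all genes tested 7.41% had a lower response at 24 h and 13.3% a higher one. By contrast 7 of 9 Toll-like receptors and coreceptors had a higher response at 24 h and 1, TLR2, a lower one. Of 29 interferon-stimulated genes 11 had a higher response at 24 h and 1 a lower one. NLRP3 (114 and 114 CPM with LTA at 4 h, against 20.9 and 11.8 CPM untreated) and CD83 were higher at 4 h and not called at 24 h, with differences of -2.77 for NLRP3 and -3.01 for CD83 (-3.68 without untreated replicate 1 of 4 h). Their lists did not share this direction. Of 13 inflammasome genes 4 had a higher response at 24 h and 3 a lower one. Of 14 costimulatory and checkpoint molecules 5 had a higher one and 1, CD83, a lower one. The list counts for 24 h minus 4 h were not repeated with 1 library left out.

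Other genes responded at 24 h and little at 4 h. For S100A8 the fold change at 4 h was log2 0.15 (adjusted p = 0.54), and the difference between times was 2.58 (adjusted p = 2.3e-05); for C5AR1 and FPR1 the differences were 2.59 each. The level in untreated cells moved as well. S100A8 was at 1731 and 1810 CPM with LTA at 24 h and 292 and 241 CPM in untreated cells at 24 h, whereas at 4 h it was at 2146 and 1736 CPM with LTA and 2063 and 1440 CPM in untreated cells. FTH1 was at 4817 and 3879 CPM with LTA and 480 and 412 CPM untreated at 24 h, and at 14270 and 12390 CPM with LTA and 3304 and 2517 CPM untreated at 4 h. For both genes the untreated 24 h libraries were the lowest of the 8, and the LTA libraries of 24 h lay within the range of the untreated libraries of 4 h for S100A8 and above it for FTH1.

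MPO was at 5666 and 8087 CPM with LTA and 13740 and 18120 CPM untreated at 24 h, and at 7559 and 6969 CPM with LTA and 9510 and 7117 CPM untreated at 4 h. CTSG was at 64.3 and 86.1 CPM with LTA and 234 and 288 CPM untreated at 24 h, and at 110 and 102 CPM with LTA and 132 and 108 CPM untreated at 4 h. In both genes the untreated libraries of 24 h were the highest of the 8. The comparison of untreated cells between times shares its 24 h libraries with the LTA comparison, so these levels are given side by side without a test, and time in culture and any handling that went with it cannot be told apart.

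**Figure D4:**
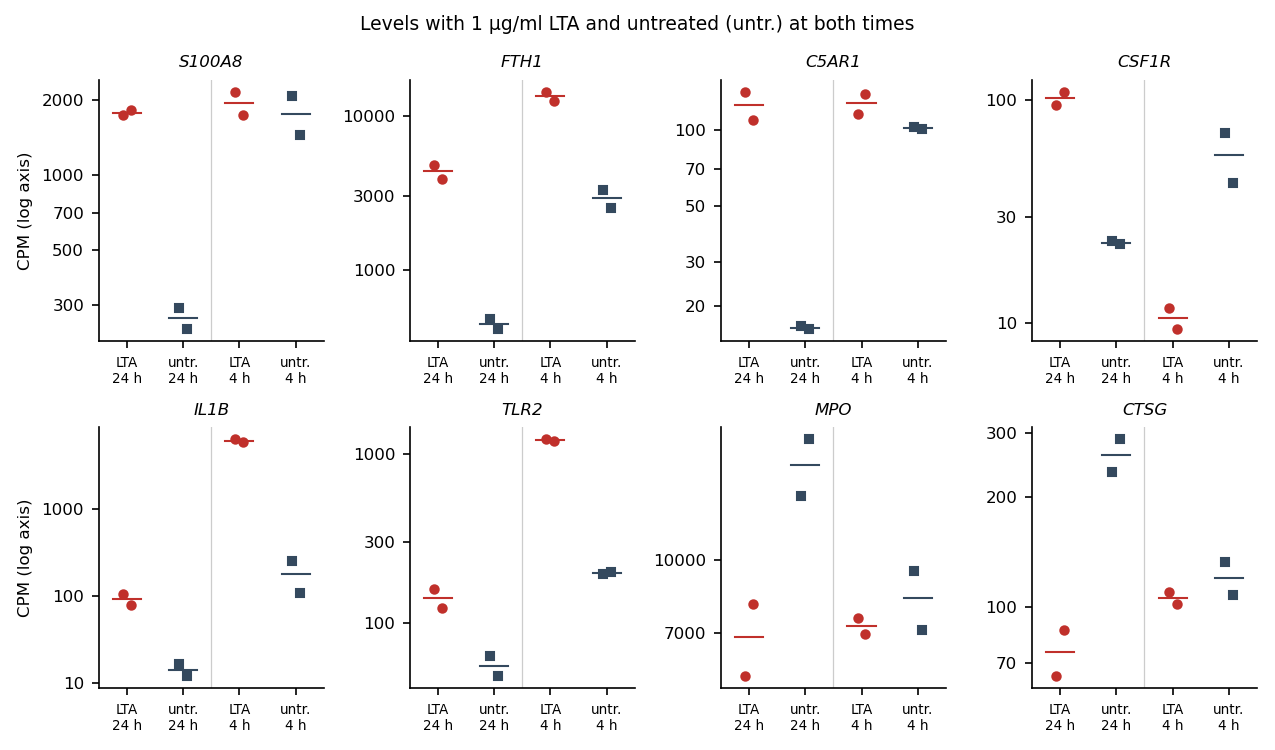
CPM on log axes for 8 genes in dHL-60 with 1 µg/ml LTA (red circles) and untreated (dark squares) at 24 h (left of each panel) and 4 h (right), 2 libraries each with a line at the mean. For S100A8, FTH1 and C5AR1 the untreated libraries of 24 h are the lowest, for MPO and CTSG they are the highest, CSF1R is lower with LTA at 4 h and higher at 24 h, and IL1B and TLR2 are highest with LTA at 4 h.

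Some genes changed direction with time. CSF1R, the receptor for M-CSF, was at 95.1 and 109 CPM with LTA and 23.3 and 22.6 CPM untreated at 24 h (log2 2.15 ± 0.21), and at 11.7 and 9.38 CPM with LTA and 71.3 and 42.5 CPM untreated at 4 h (log2 -2.45), with a difference of 4.60 (adjusted p = 1.5e-06). TGFBI, an extracellular matrix protein of monocytes, had a difference of 4.89 and PECAM1, the adhesion molecule CD31, one of 4.18. SECTM1, MYO7A, MAP3K6 and DAB2 were likewise lower at 4 h and higher at 24 h, with differences from 4.32 to 6.28; that of MYO7A moved to 5.26 without LTA replicate 2 of 4 h, and that of DAB2 to 4.21 without untreated replicate 2 of 4 h. GPRIN3 had the largest difference, 6.62 (6.04 without untreated replicate 2 of 4 h), with log2 5.53 at 24 h and -1.10 (adjusted p = 0.11) at 4 h. In the other direction, CA2, LINC00926, PRKAR1B, SRGN, FAM95C and OFD1 were higher at 4 h and lower at 24 h, with differences from -2.52 to -1.73. Except for PECAM1 and GPRIN3, these genes were taken as the 6 opposite responses in each direction whose smaller fold change was largest, so the size of the differences is a description. PRKAR1B, SRGN and OFD1 lost the 24 h call without LTA replicate 1, PRKAR1B also without untreated replicate 2 and SRGN also without untreated replicate 1.

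The low dose was finally compared directly with 10 µg/ml LTA at 24 h. Of all tested genes 94 were higher with 1 than with 10 µg/ml (0.792%) and 359 were lower (3.03%). These counts moved with every library: 21 higher and 170 lower genes were called without replicate 1 of 1 µg/ml, 4 and 45 without replicate 2 of 1 µg/ml, 2 and 73 without replicate 1 of 10 µg/ml, and 275 and 392 without replicate 2 of 10 µg/ml. Of the genes called against untreated cells at 24 h, 345 also differed between the doses; 288 were higher than untreated and lower with 1 than with 10 µg/ml, and 54 lower than untreated and higher with 1 than with 10 µg/ml. A gene that was not called here is not shown to respond alike to both doses.

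IL1B was at 16.5 and 11.8 CPM in untreated cells, 105 and 79.5 CPM with 1 µg/ml and 528 and 425 CPM with 10 µg/ml, a log2 fold change of 1 over 10 µg/ml of -2.37 ± 0.31 (adjusted p = 0.0013). CCL5 was at 12.7 and 11.9 CPM untreated, 129 and 152 CPM with 1 µg/ml and 318 and 314 CPM with 10 µg/ml (1 over 10 µg/ml: log2 -1.17 ± 0.15, adjusted p = 0.00093), and CDKN1A at 2.71 and 2.72 CPM untreated, 43.5 and 36.3 CPM with 1 µg/ml and 109 and 89.2 CPM with 10 µg/ml (-1.31 ± 0.15, adjusted p = 0.00064). CD14 was at 145 and 136 CPM untreated, 564 and 615 CPM with 1 µg/ml and 1375 and 1232 CPM with 10 µg/ml. These 4 genes stepped up over the 3 groups with no overlap. They are among the 288 genes called in both steps, so this order follows from how they were chosen. JAK3 was at 0.43 and 0.37 CPM untreated, 48.6 and 41.6 CPM with 1 µg/ml and 61.5 and 57.0 CPM with 10 µg/ml, with a log2 fold change between the doses of -0.39 ± 0.19 (adjusted p = 0.23). For CSF2RB it was 0.17 ± 0.18 (adjusted p = 0.60) and for TGFBI -0.06 ± 0.15 (adjusted p = 0.86).

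Among the 8 genes most reduced in 1 against 10 µg/ml were CCL20, ADGRG3, CCL1, UPB1, CCL3, SERPINB9, G0S2 and CCL7, with log2 fold changes of -3.39 to -2.38; CCL20 (adjusted p = 0.0559), CCL3 (0.094), CCL1 and G0S2 lost their calls without replicate 2 of 1 µg/ml, and CCL1 also without replicate 1 of 10 µg/ml (up to 0.107). CCL3 shares 74.6% of its exon bases with another annotated gene. SERPINB9 moved to -3.29 without replicate 1 of 1 µg/ml, and G0S2 ranged from -3.41 to -1.88 without replicate 1 or 2 of 1 µg/ml. Of 27 sterol and fatty acid synthesis genes 10 were lower with 1 than with 10 µg/ml and none higher. Over all genes tested 3.03% were lower and 0.792% higher. This dose count of the list was not repeated with 1 library left out. In the same list 7 genes were higher with 1 µg/ml than in untreated cells (4 to 6 without 1 library, fewest without untreated replicate 1, and up to 17 in other settings). FDPS, farnesyl diphosphate synthase, was at 166 and 167 CPM untreated, 202 and 219 CPM with 1 µg/ml and 600 and 510 CPM with 10 µg/ml (1 over 10 µg/ml: log2 -1.40 ± 0.14, adjusted p = 0.00025). FADS2, a fatty acid desaturase, was at 14.6 and 14.3 CPM untreated, 43.2 and 66.0 CPM with 1 µg/ml and 162 and 178 CPM with 10 µg/ml, and its dose difference (-1.64 ± 0.28) was lost without replicate 1 of 1 µg/ml (adjusted p = 0.0695). ABCA1, the cholesterol exporter, had another order: 9.10 and 7.35 CPM untreated, 23.2 and 27.2 CPM with 1 µg/ml and 3.05 and 7.95 CPM with 10 µg/ml (1 over 10 µg/ml: log2 2.17 ± 0.33, adjusted p = 0.0033), with a log2 fold change of 1.67 to 3.04 when 1 library was left out, the value most moved by replicate 2 of 10 µg/ml. Higher with 1 than with 10 µg/ml were also F13A1, ATP8A1, AMIGO1, DEPTOR, DPY19L2P2, KANK1 and KIT, and each of these lost its call without at least replicate 1 of 10 µg/ml. KIT was at 71.8 and 71.9 CPM untreated, 22.4 and 16.5 CPM with 1 µg/ml and 6.27 and 9.55 CPM with 10 µg/ml (adjusted p = 0.0045 between the doses, and 0.051 without replicate 1 of 10 µg/ml).

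**Figure D5:**
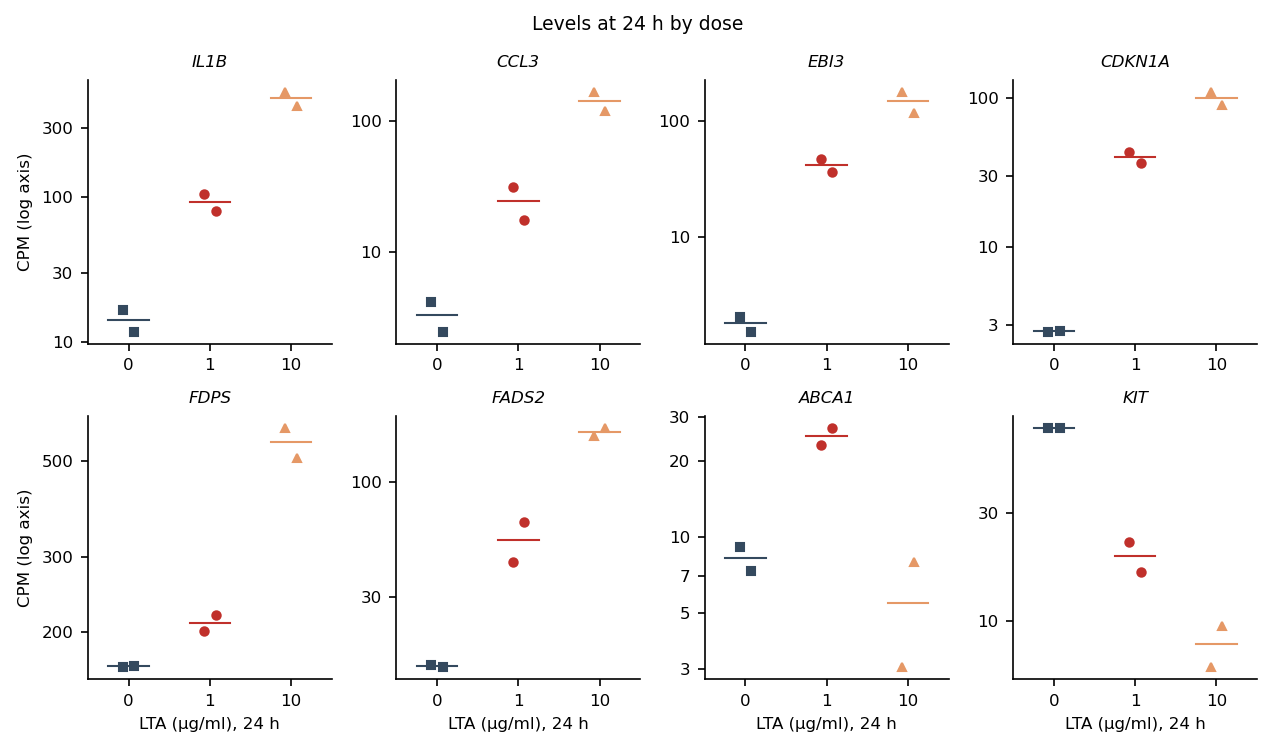
CPM on log axes at 24 h for 8 genes in untreated dHL-60 (0, squares) and with 1 (circles) or 10 µg/ml LTA (triangles), 2 libraries each with a line at the mean. IL1B, CCL3, EBI3, CDKN1A, FDPS and FADS2 step up with dose and KIT steps down, while ABCA1 is highest at 1 µg/ml.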

How the data were processed

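RNA of 12 dHL-60 libraries, 6 groups of 2, was analysed; the groups come from the sample titles. The deposited table holds raw read counts per gene symbol, as whole numbers. Per the submitters' processing notes, fastp 0.20.0, HISAT2 2.1.0, featureCounts 2.0.1, DESeq2 1.28.0, edgeR 3.36.0 and the build GRCh38 were used by the authors, with no role or order given; no source used here states whether counting used strand, so overlapping genes are marked as uncertain by the share of exon bases they have in common with another gene.

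From the counts, levels and changes were computed in R 4.3.3 with edgeR 4.0.16. The steps were filterByExpr, TMM factors, and 1 quasi-likelihood fit (glmQLFit and glmQLFTest) over all 12 libraries with 1 term per group. It gave two-sided tests of 1 µg/ml LTA against untreated at 24 h and of the same at 4 h. It also tested the 24 h minus 4 h difference and 1 against 10 µg/ml at 24 h. Each test had Benjamini-Hochberg adjustment over 11866 genes. The fit was tested on simulated counts. DESeq2 1.42.0, other scalings and filters, a fit of only the groups compared, a replicate block and leaving out each library were alternatives. Of 23575 symbols 23283 matched RefSeq, and 880 of 888 list entries matched the table.

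The members and lists were chosen with earlier results of these data known. Named genes were the 15 highest and 15 lowest called fold changes at 5 CPM or more without overlap, the 10 largest CPM gains and losses, up to 4 called members a list, the 8 highest and 8 lowest of the other comparisons, and opposite responses; other genes of these pathways were named after their values were seen. For a gene with at most 3 counts in a group a 95% counting interval, or at 0 counts a lower bound against 3 counts over the group, is given in place of a fitted value.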

Additional observations from a re-analysis of the deposited data

Results flagged for a closer look

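The response to 1 µg/ml LTA over untreated cells differed between the times, by the test of 24 h minus 4 h in edgeR's quasi-likelihood fit, for 1582 genes with the higher response at 24 h and 879 with the lower. Among genes at 5 CPM or more, the log2 difference was 6.62 for GPRIN3, 6.28 for SECTM1, 5.34 for DAB2, 5.33 for FCGR2B, 5.32 for YPEL4, 5.15 for OLFML2B, 4.97 for PMP22 and 4.96 for CD1D. It was -3.99 for NMNAT3, -3.49 for CCND1, -3.44 for ZBTB10, -3.27 for HS3ST3B1, -3.23 for VILL, -3.20 for CCL3L3, -3.17 for ATP2B1 and -3.16 for DUSP5. These sizes moved with single 4 h libraries. Without LTA replicate 2 of 4 h the difference was 10.85 for OLFML2B, 9.65 for FCGR2B, 5.94 for DAB2 and 4.57 for YPEL4. Without LTA replicate 1 of 4 h it was 6.20 for YPEL4, 4.65 for FCGR2B and 4.42 for OLFML2B. Without untreated replicate 2 of 4 h it was 6.04 for GPRIN3, 4.24 for PMP22, 4.21 for DAB2 and 3.42 for FCGR2B, and without untreated replicate 1 of 4 h it was 6.04 for FCGR2B and -4.10 for CCL3L3. The call for FCGR2B was lost without untreated replicate 2 of 4 h (adjusted p = 0.215), and FCGR2B and CCL3L3 have near-identical copies.

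Genes called in opposite directions at the 2 times had log2 differences of 4.89 for TGFBI, 4.60 for CSF1R, 4.53 for MYO7A and 4.32 for MAP3K6, which were higher at 24 h and lower at 4 h. For CA2 the difference was -2.16, for LINC00926 -2.09, for SRGN -1.92, for PRKAR1B -1.91, for FAM95C -2.52 and for OFD1 -1.73, all of them lower at 24 h and higher at 4 h. With 2 libraries a group, no single library was tested for standing apart.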

How the results depend on the processing

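Of 400 named genes called at 24 h, 255 kept their call in every setting tried and none changed direction; 122 lost it without LTA replicate 1, 97 and 93 without untreated replicate 1 and 2, 64 without LTA replicate 2, and 0 to 17 in other settings. Of 39 named differences between times 36 and of 23 between doses 11 kept theirs. Leaving out 1 library gave 919 to 1298 higher and 225 to 485 lower genes at 24 h, and 107 to 213 at least 2-fold lower (113 with the stricter filter at 10 CPM); fitting only the groups compared gave 1382 lower genes. The difference of 24 h minus 4 h gave 548 to 829 lower and 1072 to 1450 higher genes without 1 library, and 2564 higher and 478 lower with library totals. The doses gave, higher and lower with 1 µg/ml, 200 and 216 genes with library totals, 583 and 771 with no filter, 200 and 553 with DESeq2, 244 and 587 with only the groups compared, and 2 to 275 and 45 to 392 without 1 library. At 4 h, library totals gave 1350 higher and 4194 lower genes. With library totals the median over all genes moved to 0.30 for 24 h minus 4 h, 0.14 for the doses and -0.32 at 4 h. The cause of these shifts was not tested. The deviations of same-numbered libraries correlated at 0.13 to 0.38 among the 4 h groups, at -0.20 to 0.088 among the 24 h groups (-0.068 for LTA and untreated) and at -0.15 to 0.29 between the times, and with 2 numbers a group they were not taken as pairs; a replicate block gave 1746 higher and 934 lower genes at 24 h, 1656 and 979 for 24 h minus 4 h, and 154 higher and 509 lower between doses. With 2 libraries a group and 9653374 to 16530277 counts each, the size of changes from under 1 CPM is limited by counting. The 4 h counts and single-gene differences were alternatives chosen after seeing the data.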

Other observations

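HBB, β-globin, had 1.03 and 1.31 CPM with 1 µg/ml LTA and 0 counts in both untreated libraries at 24 h. At 4 h HBB was at 0.49 and 0.16 CPM with 1 µg/ml LTA and at 32.0 and 34.4 CPM untreated. It was chosen after its values were seen.

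MIR155HG, the host transcript of miR-155, was at 0.37 and 0.39 CPM with 1 µg/ml LTA and 1.60 and 0.66 CPM untreated at 24 h (adjusted p = 0.12 by edgeR's quasi-likelihood test). At 4 h it was at 85.8 and 162 CPM with LTA and 1.43 and 2.18 CPM untreated (log2 6.08, adjusted p = 8.4e-08), and the difference between times was -7.69 (adjusted p = 2.8e-05). It was also chosen after its values were seen.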
